A study of Saccharomyces cerevisiae with 72 samples.

Results

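Gene expression of *mad1Δ bub2Δ* cells was compared with that of *MAD1 BUB2* cells at experiment initiation (0 h), before ploidy was raised with nocodazole. The comparison held 6 of the 72 RNA sequencing libraries of the series, and they were chosen by the strain, drug series and time in their labels, not by any measured value. Budding yeast strain 41994, *mad1Δ bub2Δ*, in the nocodazole series at 0 h (3 libraries) was set against strain 2587, *MAD1 BUB2* (labelled WT), in the nocodazole series at 0 h (3 libraries). A further 3 libraries of strain 41994 at 0 h came from the series that received DMSO, the solvent of nocodazole, and served as a second set of cultures of the same mutant. The rest of the series followed these strains for 16 h and held *cdc24-1 swe1Δ* strains, which reach high ploidy by another route.

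Both strains were MATa haploids of the W303 background and shared mutant alleles of *ADE2*, *LEU2*, *TRP1* and *CAN1*. In strain 41994, *MAD1* was disrupted with *URA3* and *BUB2* with *HIS3*, and strain 2587 carried only mutant alleles of both marker genes. The strains therefore differed in 4 genes at once, and the parts of the 4 cannot be told apart. Cultures grew in log phase in rich glucose medium with adenine at 30 °C. Nocodazole was added at initiation, and whether the 0 h samples were taken just before or just after it is not given in the sources used here. Each genotype was 1 strain, and the wild type had 1 set of cultures at 0 h, so strain and culture set cannot be told apart either.

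Mad1 is a part of the spindle assembly checkpoint, which holds cells in metaphase until every kinetochore is attached to microtubules. Bub2 is a subunit of the GTPase-activating complex of the spindle position checkpoint, which restrains the mitotic exit network until a nucleus has entered the bud. Neither gene is essential, and cells that lack both divide, but they leave mitosis and copy their DNA again when microtubules are removed.

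The libraries of *mad1Δ bub2Δ* cells held 5469736 to 6957823 counts, against 5496061 to 8337155 in *MAD1 BUB2* cells and 7583574 to 8820729 in the DMSO series of the mutant. Of 6025 features tested, 356 were higher and 233 lower in *mad1Δ bub2Δ* cells (edgeR quasi-likelihood test, Benjamini-Hochberg adjusted p under 0.05), which is 9.78% of the features (5.91% higher, 3.87% lower). The CPM ranges of the groups did not overlap for 569 of these 589 features, and for 33.6% of all features. Of the calls, 136 were more than 2-fold higher and 33 more than 2-fold lower, and the median log2 difference over all features was 0.04. Leaving out 1 library gave 289, 252 and 672 calls without mutant replicates 1, 2 and 3, and 237, 379 and 325 without wild-type replicates 1, 2 and 3. On the deposited log2(TPM + 1) values, limma called 583 higher and 98 lower, and the median of all features moved to 0.18, so the share of calls that were higher was 85.6% there against 60.4%. With only the 9 libraries at 0 h in the fit, 190 were higher and 223 lower (46% higher). The DMSO series of the mutant gave 473 higher and 230 lower against the same wild-type libraries (11.7% called, 7.85% higher and 3.82% lower), with non-overlapping CPM ranges for 30.4% of all features. Between the nocodazole and DMSO series of the mutant, which share a genotype, 430 features were higher and 584 lower in the nocodazole series (16.8% called, 7.14% higher and 9.69% lower). Values of both mutant sets are therefore given side by side below for many genes and lists, and the 2 sets share the wild-type libraries. Same-numbered replicates of the 2 sets also deviated together, so like values in both sets are not independent repeats. Where no DMSO value is given, the value is that of the nocodazole series. Counts for the DMSO series below stand beside its shares of 7.85% higher and 3.82% lower. Counts between the 2 mutant sets stand beside 7.14% higher and 9.69% lower. Replicate 3 stood apart in both mutant sets, with 239 features over 2-fold from both other replicates in the nocodazole series (123 and 138 for replicates 1 and 2) and 309 in the DMSO series. Among the wild-type libraries replicate 1 had 183 such features, against 80 for replicate 2 and 80 for replicate 3. Differences are log2 of *mad1Δ bub2Δ* over *MAD1 BUB2*, and CPM is the count of a feature scaled to a common library size.

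**Figure D1:**
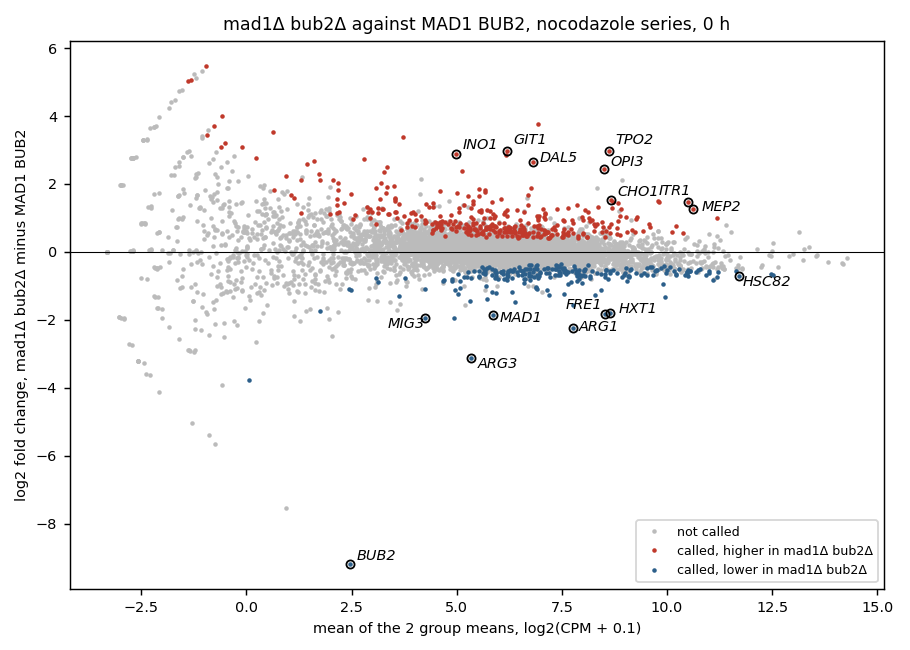
Log2 difference of mad1Δ bub2Δ over MAD1 BUB2 cells at 0 h (y axis) against the mean log2(CPM + 0.1) (x axis) for each feature tested. Red points were called higher (356) and blue points lower (233); INO1, OPI3 and GIT1 lie among the highest, ARG3 and MAD1 among the lowest, and the position of BUB2, which has 0 counts in the mutant, depends on the prior count.

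The 4 genes that set the strains apart were read first, as a check of the labels. *BUB2* (chromosome XIII, 386101 to 387021, R64) had 0 counts in each of the 3 *mad1Δ bub2Δ* libraries and in the 3 of the DMSO series, against 49, 50 and 109 counts in *MAD1 BUB2* libraries. With a floor of 3 counts per library it was at least 21.8-fold lower in *mad1Δ bub2Δ* cells. *MAD1* (chromosome VII, 347119 to 349368) had 27.8, 26 and 21.9 CPM in *mad1Δ bub2Δ* cells, against 89.3, 88.5 and 96.6 CPM in *MAD1 BUB2* cells. All mutant libraries lay below all wild-type libraries, with a log2 difference of -1.86 (edgeR, SE 0.25, adjusted p = 1.06e-05), but *MAD1* was not at 0, and the DMSO series had 41, 22.8 and 17.9 CPM. The counts are per gene and do not show which part of *MAD1* the remaining reads came from.

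*URA3* (chromosome V, 116167 to 116970), which encodes the decarboxylase that makes UMP, had 253, 269 and 199 CPM in *mad1Δ bub2Δ* cells, against 173, 145 and 167 CPM in *MAD1 BUB2* cells. The groups did not overlap, and the log2 difference was 0.57 (edgeR, SE 0.18, adjusted p = 0.0395). It was 0.90 in the DMSO series (adjusted p = 0.00108). Without any 1 of 5 of the 6 libraries (replicates 1 and 2 of the mutant, and each of the wild type) the adjusted p rose above the threshold, up to 0.174 without mutant replicate 2, where the difference was 0.48. *HIS3* (chromosome XV, 721946 to 722608), which encodes a dehydratase of histidine synthesis, had 22.3, 20.5 and 50.7 CPM in *mad1Δ bub2Δ* cells, against 35.8, 20.3 and 25.8 CPM in *MAD1 BUB2* cells. These groups overlapped, and the log2 difference of 0.20 did not pass the test (adjusted p = 0.732). The marker genes were thus transcribed in both strains, and in the mutant the reads of the cassettes and of the native alleles cannot be told apart. Of the shared alleles *ADE2*, *LEU2*, *TRP1* and *CAN1*, 0 of 4 were called.

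**Figure D2:**
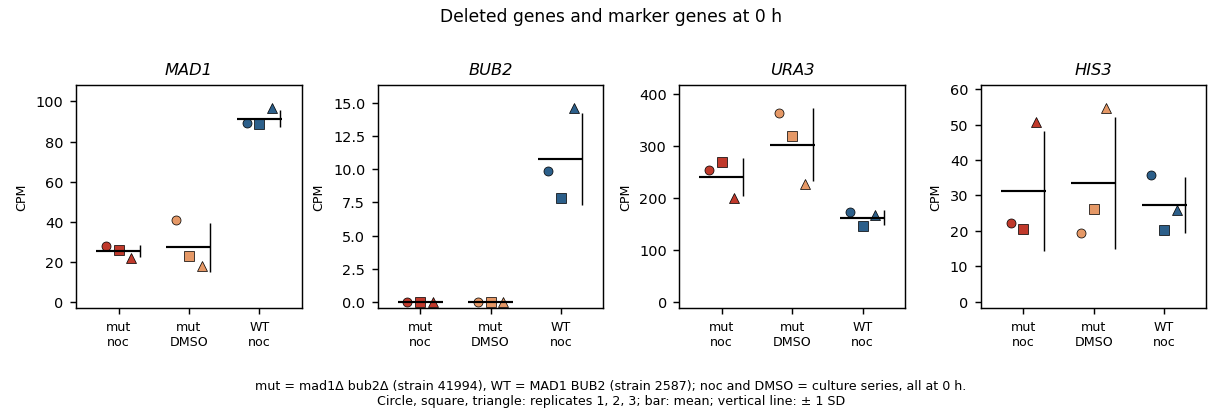
CPM of MAD1, BUB2, URA3 and HIS3 in each library at 0 h, with mad1Δ bub2Δ of the nocodazole series, mad1Δ bub2Δ of the DMSO series and MAD1 BUB2 of the nocodazole series from left to right. Circles, squares and triangles are replicates 1, 2 and 3, bars are means and vertical lines are 1 SD either way; BUB2 sits at 0 in all mutant libraries and MAD1 between 17.9 and 41 CPM there.

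The 3 protein-coding genes on each side of *MAD1*, *BUB2* and the native *URA3* and *HIS3* loci were examined next. Of 23 tested, 4 were called, all lower in *mad1Δ bub2Δ* cells, where 3.87% of all features were called lower. *GEA2*, an exchange factor for ARF GTPases that lies next to *URA3*, had 159, 160 and 134 CPM in *mad1Δ bub2Δ* cells, against 200, 239 and 205 CPM in *MAD1 BUB2* cells. These did not overlap, and the log2 difference was -0.51 (edgeR, SE 0.12, adjusted p = 0.00531). The other calls were *BFR1* (-0.49, adjusted p = 0.0141) and *NOC2* (-0.68, adjusted p = 0.00833) near *HIS3*, and *FET3*, the multicopper oxidase of iron uptake, near *BUB2* (-0.86, adjusted p = 0.0393). These 3 calls were lost in some leave-one-out fits (*FET3* in 5 of 6, *BFR1* in 3 and *NOC2* in 2; highest adjusted p 0.162, 0.091 and 0.0683), with *FET3* at -0.77 without mutant replicate 2. In the DMSO series *FET3* was at 0.38, *NOC2* at 0.31, *BFR1* at -0.50 and *GEA2* at -0.26, and the 2 mutant sets differed for *FET3* (adjusted p = 0.00154) and *NOC2* (0.000108). The immediate neighbours of the deletions were not called: *MMS2* and *LCL3* beside *MAD1* were at 0.67 (adjusted p = 0.0518) and 0.40 (0.187), and *STV1* and *AAC1* beside *BUB2* were at 0.24 (0.244) and -0.12 (0.84).

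Synthesis of pyrimidines needs *URA3* and synthesis of histidine needs *HIS3*, so both pathways differ in an enzyme between the strains. In the pathway to UTP and CTP 3 of 9 genes were higher and 0 lower (median -0.26 over the list), beside 5.91% of all features higher. The DMSO series had 1 higher, *URA3*, and 0 lower. With the 9 libraries at 0 h fitted alone, 0 were called in the nocodazole series. Beside *URA3* the genes higher in the nocodazole series were *URA8*, a CTP synthase (1.11, adjusted p = 0.0197), and *URA10*, the minor orotate phosphoribosyltransferase (1.26, adjusted p = 0.0392). In the DMSO series *URA8* was at 0.81 (adjusted p = 0.0822) and *URA10* at 0.43 (0.542). *URA8* had 125, 153 and 282 CPM in *mad1Δ bub2Δ* cells, against 82.8, 86.1 and 90.9 CPM in *MAD1 BUB2* cells. Replicate 3 of the mutant was the highest library, and without it the difference was 0.68 (adjusted p = 0.156). The call of *URA8* was also lost without each wild-type replicate in turn, so in 4 of 6 leave-one-out fits. *URA10* lost its call in 5 of 6 leave-one-out fits (highest adjusted p 0.142, without wild-type replicate 1). *URA1*, the dihydroorotate dehydrogenase and a target of the activator Ppr1, was at -0.55 (adjusted p = 0.106). None of 9 uptake and salvage genes was called in the nocodazole series (median 0.17), and 4 were higher in the DMSO series: the uracil phosphoribosyltransferase *FUR1*, the uracil permease *FUR4*, the uridine kinase *URK1* and the activator *PPR1*. Of the 7 histidine genes 0 were called (median -0.12). *HIS4*, which encodes a trifunctional histidine enzyme, had 103, 119 and 419 CPM in *mad1Δ bub2Δ* cells, against 202, 228 and 210 CPM in *MAD1 BUB2* cells, with replicate 3 of the mutant above and replicates 1 and 2 below every wild-type library.

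Many genes of inositol and phospholipid synthesis were higher in *mad1Δ bub2Δ* cells. In yeast the activator pair Ino2 and Ino4 binds an element with the core CATGTG in these promoters, and the repressor Opi1 holds it back when inositol is plentiful. Of 24 genes of this group 13 were called higher and 0 lower, beside 5.91% and 3.87% of all features. Their median was 0.71 against 0.04 over all features. The sum of their CPM was 12357 to 14445 in *mad1Δ bub2Δ* libraries, 8510 to 11352 in the DMSO series and 8604 to 9073 in *MAD1 BUB2* libraries. The list was drawn up after these values had been seen, so its counts describe it and test nothing. In the DMSO series 9 were higher and 0 lower (median 0.33), and 8 were higher in the nocodazole than in the DMSO series of the mutant. The count of calls ranged from 9 to 14 when 1 library was left out; it was 9 without mutant replicate 1, wild-type replicate 1 or wild-type replicate 3. The promoters of 4 members are shown because their genes make inositol and the headgroup lipids and were among the 9 members called in every leave-one-out fit. Each is the 300 bases before the start codon in the RefSeq sequence of R64, read on the strand of the gene, with CATGTG on either strand in capitals (CACATG where the match is on the other strand): *INO1* at chrX:135934-136233 (minus strand), *OPI3* at chrX:572936-573235 (minus), *CHO1* at chrV:208475-208774 (minus) and *PSD1* at chrXIV:317672-317971 (minus).
INO1 promoter: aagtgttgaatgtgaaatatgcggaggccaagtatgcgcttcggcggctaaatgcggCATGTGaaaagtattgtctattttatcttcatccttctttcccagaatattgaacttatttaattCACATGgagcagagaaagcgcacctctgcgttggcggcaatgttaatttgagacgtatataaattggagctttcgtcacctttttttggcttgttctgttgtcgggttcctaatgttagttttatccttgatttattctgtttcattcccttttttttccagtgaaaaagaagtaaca
OPI3 promoter: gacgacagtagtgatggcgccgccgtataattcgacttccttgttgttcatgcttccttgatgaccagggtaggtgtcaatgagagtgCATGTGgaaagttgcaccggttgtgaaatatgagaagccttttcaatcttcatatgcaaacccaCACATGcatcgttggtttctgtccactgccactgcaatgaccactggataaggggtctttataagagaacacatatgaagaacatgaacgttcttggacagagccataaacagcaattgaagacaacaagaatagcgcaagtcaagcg
CHO1 promoter: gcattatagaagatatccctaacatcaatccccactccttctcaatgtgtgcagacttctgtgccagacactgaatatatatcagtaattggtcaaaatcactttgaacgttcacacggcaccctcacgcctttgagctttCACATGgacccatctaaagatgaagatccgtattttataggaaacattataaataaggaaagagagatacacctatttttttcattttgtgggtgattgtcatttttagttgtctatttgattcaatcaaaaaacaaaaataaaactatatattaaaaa
PSD1 promoter: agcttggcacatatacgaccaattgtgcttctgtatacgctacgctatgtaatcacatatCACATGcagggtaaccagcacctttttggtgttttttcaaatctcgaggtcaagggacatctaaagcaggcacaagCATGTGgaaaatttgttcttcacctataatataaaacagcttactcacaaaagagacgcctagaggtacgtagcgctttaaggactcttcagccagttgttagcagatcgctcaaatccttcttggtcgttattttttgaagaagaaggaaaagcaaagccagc
*INO1*, *OPI3* and *PSD1* have 2 matches each and *CHO1* has 1. The element occurred in 15 of the 24 promoters of the list (62.5%), against 7.15% of 6001 promoters of the same length and 14.9% of those of all genes called higher. It was in 10 of the 13 promoters of members called higher and in 5 of the 11 others, and *GIT1*, *OPI1* and *EPT1* were called without it. A match is a run of letters and was not shown to be bound.

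*INO1* (chromosome X, 134332 to 135933) encodes inositol-3-phosphate synthase, the first step of inositol synthesis. It had 58.2, 69.6 and 38.3 CPM in *mad1Δ bub2Δ* cells, against 8.49, 5.78 and 8.19 CPM in *MAD1 BUB2* cells. Every mutant library was above every wild-type library, and the log2 difference was 2.89 (edgeR, SE 0.34, adjusted p = 1.27e-06). The DMSO series was at 24.9, 22 and 20.8 CPM, again above the wild type (1.59, adjusted p = 0.00225) and below the nocodazole series of the same strain. *OPI3* (chromosome X, 572315 to 572935), the methyltransferase that completes phosphatidylcholine, had 786, 626 and 418 CPM in *mad1Δ bub2Δ* cells, against 117, 106 and 117 CPM in *MAD1 BUB2* cells. The groups did not overlap and the log2 difference was 2.43 (edgeR, SE 0.20, adjusted p = 9.16e-10), with 296, 269 and 361 CPM in the DMSO series (1.45). *CHO1*, the phosphatidylserine synthase, had 732, 662 and 413 CPM in *mad1Δ bub2Δ* cells, against 191, 211 and 218 CPM in *MAD1 BUB2* cells. It differed by 1.54 (edgeR, SE 0.18, adjusted p = 1.27e-06), and by 0.83 in the DMSO series. *PSD1*, which turns phosphatidylserine into phosphatidylethanolamine in mitochondria, had 381, 357 and 272 CPM in *mad1Δ bub2Δ* cells, against 126, 129 and 131 CPM in *MAD1 BUB2* cells, again without overlap (1.39, adjusted p = 2.58e-05).

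Of the carriers that bring precursors into the cell, *ITR1*, *HNM1* and *GIT1* were called higher and *ITR2* was not. *ITR1*, the main inositol transporter, had 2396, 2153 and 1789 CPM in *mad1Δ bub2Δ* cells, against 699, 796 and 801 CPM in *MAD1 BUB2* cells. All mutant libraries were above all wild-type libraries (1.46, adjusted p = 4.8e-06; 0.85 in the DMSO series). *HNM1*, the choline transporter, had 773, 633 and 443 CPM in *mad1Δ bub2Δ* cells, against 216, 231 and 223 CPM in *MAD1 BUB2* cells (1.46, adjusted p = 4.38e-06; 1.16 in the DMSO series). *GIT1*, a permease for glycerophosphoinositol, had 174, 140 and 77.4 CPM in *mad1Δ bub2Δ* cells, against 16.4, 14.2 and 18.9 CPM in *MAD1 BUB2* cells. It had the largest difference in the group, 2.98 (edgeR, SE 0.24, adjusted p = 9.16e-10), with 58.5, 53.2 and 87.1 CPM in the DMSO series (2.00). *CDS1*, which makes CDP-diacylglycerol, was at 0.93 (adjusted p = 0.00268) and 0.83 in the DMSO series. *CKI1*, the choline kinase, was called in the nocodazole series only. It had 133, 148 and 118 CPM in *mad1Δ bub2Δ* cells and 56.2, 57.7 and 90.2 CPM in the DMSO series, against 74.5, 77.5 and 67.9 CPM in *MAD1 BUB2* cells (0.86 and -0.11), and the 2 mutant sets differed by 0.97 (adjusted p = 0.000306).

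The remaining calls of the group were smaller and less stable. *CHO2*, the first methyltransferase to phosphatidylcholine, was at 0.74 (adjusted p = 0.0174), *OPI1*, the repressor itself, at 0.74 (0.0407), *EPT1* at 0.63 (0.039) and *CPT1* at 0.53 (0.0309); the last pair attach headgroups to diacylglycerol. *CHO2* and *EPT1* lost the call in 4 leave-one-out fits each, *OPI1* in 5 and *CPT1* in 3, with highest adjusted p of 0.0994, 0.166, 0.186 and 0.275. The activators *INO2* (0.73, adjusted p = 0.0675) and *INO4* (0.68, 0.0568) did not pass, nor did *PIS1*, which joins inositol to CDP-diacylglycerol (0.38, 0.138), the fatty acid synthase genes *FAS1* (-0.05) and *FAS2* (0.34), the acetyl-CoA carboxylase *ACC1* (-0.02) or the second inositol transporter *ITR2* (0.00).

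**Figure D3:**
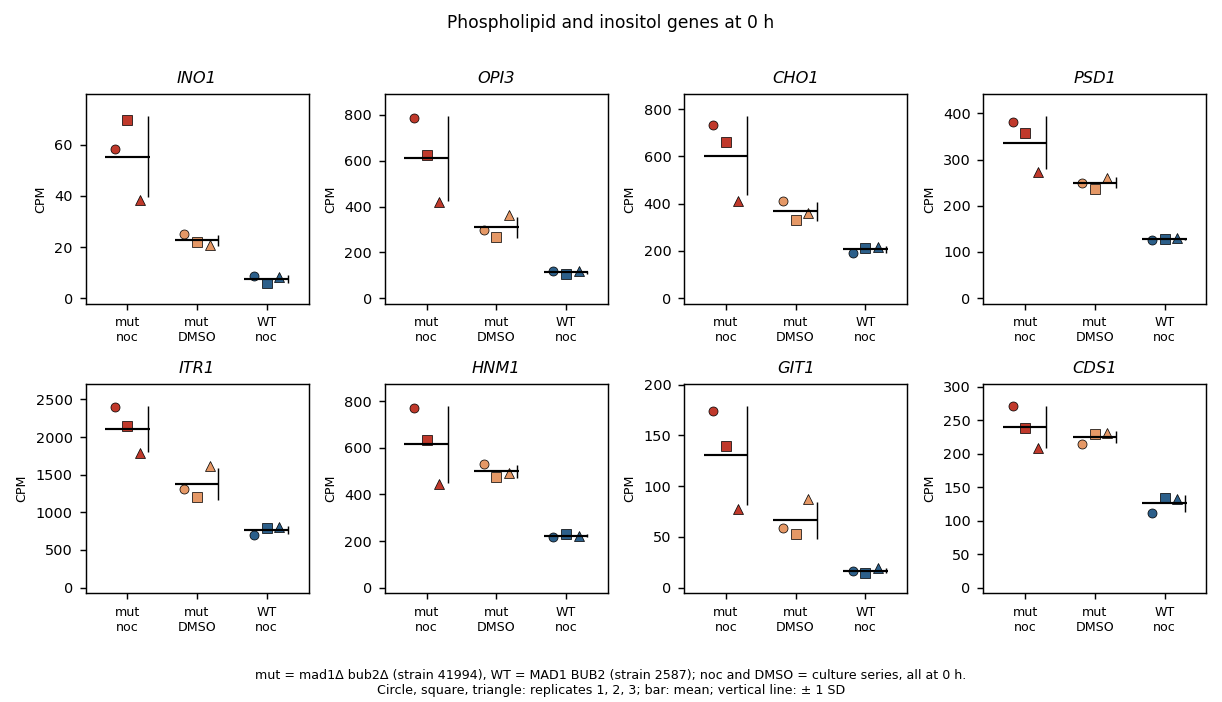
CPM of 8 genes of inositol and phospholipid synthesis and uptake in each library at 0 h, with mad1Δ bub2Δ of the nocodazole series, mad1Δ bub2Δ of the DMSO series and MAD1 BUB2 from left to right. Symbols are replicates, bars means and vertical lines 1 SD either way; all mutant libraries of both series lie above the wild-type libraries for each of the 8, and the nocodazole series has the highest means.

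Over the later times the levels of *INO1* crossed. In *MAD1 BUB2* cells, which arrest in nocodazole, *INO1* averaged 7.49, 7.26, 60.5, 257 and 407 CPM over the 5 times from 0 to 16 h (every 4 h). In *mad1Δ bub2Δ* cells it averaged 55.4, 172, 114, 94.2 and 120 CPM at the same times, above the wild type up to 8 h and below it from 12 h. After 0 h the strains differ in arrest and ploidy as well as in genotype, so these later values are a description. On the scale of all 72 libraries the 6 *mad1Δ bub2Δ* libraries at 0 h ranged from 21.6 to 72.2 CPM for *INO1* and the 3 *MAD1 BUB2* libraries from 6.05 to 9.01 CPM, while 6 *cdc24-1 swe1Δ* libraries ranged from 30.4 to 41 CPM and 3 *cdc24-1 swe1Δ cdc20-1* libraries from 32.9 to 35.6 CPM. For *INO1*, the *MAD1 BUB2* libraries were therefore the lowest of the 4 strains at 0 h. The *cdc24-1* libraries came from series labelled with other temperatures than 30 °C, and the *cdc20-1* strain is listed as MATα. Strain, temperature and mating type cannot be told apart in this order. *OPI3* gave another order, with 281 to 822 CPM in *mad1Δ bub2Δ*, 165 to 329 in *cdc24-1 swe1Δ*, 49.5 to 61.7 in *cdc24-1 swe1Δ cdc20-1* and 111 to 124 in *MAD1 BUB2* libraries.

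Most genes of arginine and lysine synthesis were lower in *mad1Δ bub2Δ* cells. Of 9 arginine genes 0 were higher and 5 lower (median -0.91 against 0.04 over all features), beside 3.87% of all features called lower. In the DMSO series 4 were lower (median -0.60). With the 9 libraries at 0 h fitted alone, 3 arginine genes were lower. *ARG1* (chromosome XV, 219211 to 220473), argininosuccinate synthetase, had 55.6, 62 and 110 CPM in *mad1Δ bub2Δ* cells, against 361, 355 and 352 CPM in *MAD1 BUB2* cells. The 3 wild-type libraries lay within a narrow range far above the mutant libraries, and the log2 difference was -2.23 (edgeR, SE 0.32, adjusted p = 2.57e-05). In the DMSO series *ARG1* was at 37.6, 46.7 and 120 CPM, a difference of -2.39, and the 2 mutant sets differed by 0.16 (adjusted p = 0.804). *ARG3* (chromosome X, 268799 to 269815), ornithine carbamoyltransferase, had 3.2, 2.6 and 19.2 CPM in *mad1Δ bub2Δ* cells, against 80.6, 71.8 and 66.1 CPM in *MAD1 BUB2* cells. Replicate 3 was the highest of the mutant libraries and still below all of the wild type, and the log2 difference was -3.12 (edgeR, SE 0.42, adjusted p = 1.06e-05), -2.26 in the DMSO series and -4.63 without mutant replicate 3.

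*ARG5,6*, which encodes both acetylglutamate kinase and the reductase after it, had 54.1, 67.9 and 208 CPM in *mad1Δ bub2Δ* cells, against 273, 380 and 318 CPM in *MAD1 BUB2* cells (-1.56, adjusted p = 0.00368). *ARG8*, acetylornithine aminotransferase, had 46.4, 30.3 and 55.3 CPM in *mad1Δ bub2Δ* cells, against 104, 143 and 121 CPM in *MAD1 BUB2* cells. Neither gene's groups overlapped; *ARG8* differed by -1.48 (adjusted p = 4.38e-06), by -0.61 in the DMSO series, and by -0.86 between the 2 mutant sets. Without mutant replicate 3 the difference of *ARG5,6* was -2.41. *ARG1* was lower in the mutant at every time sampled, where it ranged from 25.4 to 124 CPM over the 21 *mad1Δ bub2Δ* libraries and from 259 to 471 CPM over the 15 *MAD1 BUB2* libraries. *ARG3* likewise ranged from 2.7 to 42.4 CPM in the mutant and from 69.9 to 123 CPM in the wild type over those libraries.

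Of 7 lysine genes 0 were higher and 6 lower (median -0.61), beside 3.87% of all features called lower. In the DMSO series 4 were lower (median -0.65). *LYS20*, a homocitrate synthase that opens the pathway, had 166, 149 and 234 CPM in *mad1Δ bub2Δ* cells, against 483, 424 and 409 CPM in *MAD1 BUB2* cells. The groups did not overlap (-1.26, adjusted p = 0.000162), and the DMSO series was at -0.65. *LYS9*, the saccharopine dehydrogenase that forms saccharopine, had 191, 160 and 173 CPM in *mad1Δ bub2Δ* cells, against 305, 305 and 298 CPM in *MAD1 BUB2* cells, where each group spanned a narrow range (-0.79, adjusted p = 0.0016; -0.93 in the DMSO series). *LYS2* was at -0.70 and *LYS12* at -0.61. Left-out libraries moved the number of lysine calls between 2 and 6: *LYS20* and *LYS9* remained, while it was 2 without mutant replicate 2 and 3 without mutant replicate 1, and *LYS2* lost its call in 4 fits (highest adjusted p 0.155). It was 4 with the libraries of the 2 groups alone, and 3 with the 9 libraries at 0 h or with limma. Lys14, the activator of this pathway, reads TCCNNNGGA. The promoter of *LYS9* is shown since it has 2 matches (in capitals) and its gene was lower by like amounts in both mutant sets; it lies at chrXIV:715389-715688 of R64, minus strand.
LYS9 promoter: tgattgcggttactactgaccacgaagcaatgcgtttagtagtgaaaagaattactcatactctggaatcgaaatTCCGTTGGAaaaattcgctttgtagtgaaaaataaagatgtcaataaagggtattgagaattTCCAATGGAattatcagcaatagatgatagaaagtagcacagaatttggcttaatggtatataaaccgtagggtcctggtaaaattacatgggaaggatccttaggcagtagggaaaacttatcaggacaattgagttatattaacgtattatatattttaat
The motif was in 3 of 7 promoters of the pathway, against 3.15% of all promoters of that length. It was in 2 of the 6 of genes called lower (*LYS9* and *LYS12*, not *LYS20*) and in that of the 1 gene not called, LYS1. Histidine synthesis, which like arginine and lysine synthesis is under the general amino acid activator Gcn4, had 0 of 7 genes called. The part of Gcn4 in these values was not tested. Tryptophan synthesis had 0 of 5 genes called, and the sulfur and methionine genes 0 of 15. In the DMSO series 1 tryptophan gene was lower and 7 of the sulfur and methionine genes were higher (median 0.88).

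**Figure D4:**
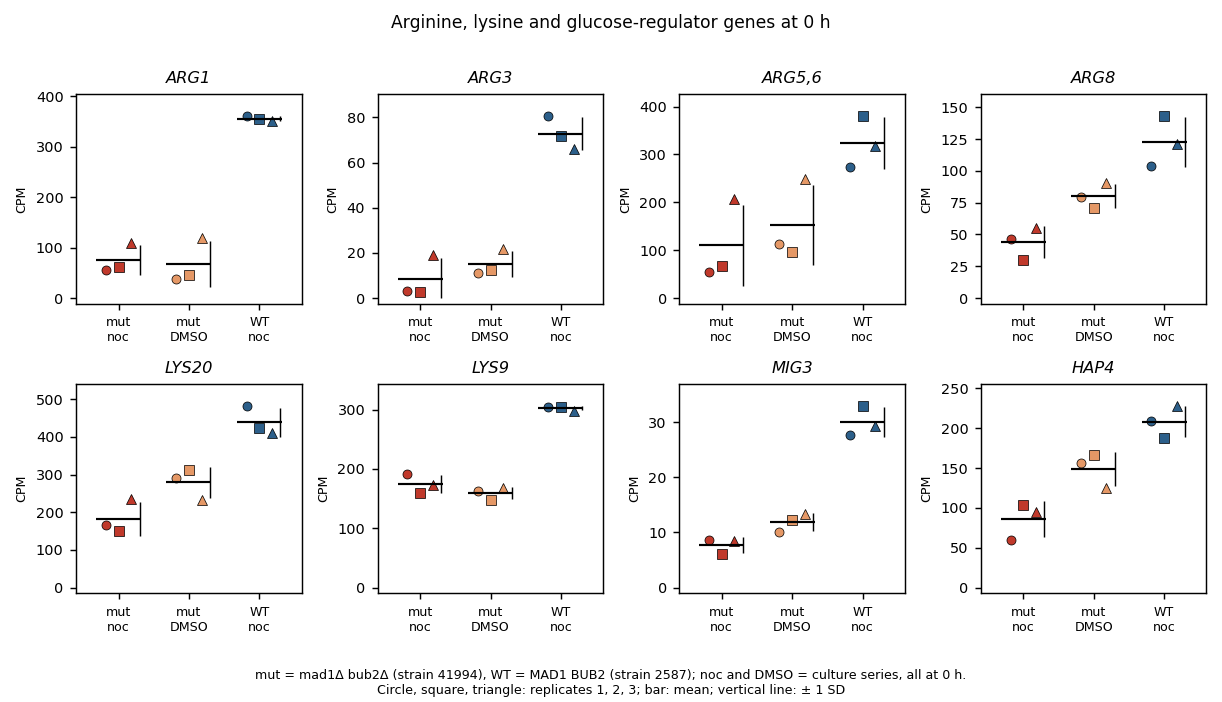
CPM of ARG1, ARG3, ARG5,6, ARG8, LYS20, LYS9, MIG3 and HAP4 in each library at 0 h, in the order mad1Δ bub2Δ of the nocodazole series, mad1Δ bub2Δ of the DMSO series and MAD1 BUB2 from left to right. Symbols are replicates, bars means and vertical lines 1 SD either way; the mutant libraries of both series lie below the wild-type libraries for each gene, ARG1 at 37.6 to 120 CPM against 352 to 361 CPM.

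Some regulators of glucose repression and some genes of glucose uptake were lower in *mad1Δ bub2Δ* cells, while most of both lists were not called. Of 12 regulators in a list drawn up after the values had been seen, 4 were lower and 0 higher (median -0.24). Of 13 hexose transport genes 4 were lower and 0 higher (median -0.26). The share of all features called lower was 3.87%. In the DMSO series 3 regulators were lower, and of the hexose transport genes 1 was higher and 2 were lower. The 4 regulators became 2 without mutant replicate 1 or 2, since *MIG2* and *MTH1*, a partner of the glucose repressor Rgt1 (-1.31), then did not pass. *MIG3*, a repressor related to Mig1, had 8.58, 6.14 and 8.51 CPM in *mad1Δ bub2Δ* cells, against 27.7, 33 and 29.3 CPM in *MAD1 BUB2* cells. There was no overlap (-1.95, adjusted p = 4.38e-06), nor in the DMSO series (-1.34). *MIG2*, its relative, had 19.1, 18.2 and 50.6 CPM in *mad1Δ bub2Δ* cells, against 81.4, 65.2 and 82.5 CPM in *MAD1 BUB2* cells (-1.38, adjusted p = 0.0117; -1.49 in the DMSO series), a call lost without mutant replicate 1 or 2 (-1.14 in both). *HAP4*, the activating subunit for respiratory genes, had 60.1, 103 and 94.8 CPM in *mad1Δ bub2Δ* cells, against 209, 188 and 228 CPM in *MAD1 BUB2* cells (-1.28, adjusted p = 4.8e-06; -0.48 in the DMSO series). Of 22 oxidative phosphorylation genes 2 were called higher, *SDH2*, a succinate dehydrogenase subunit (0.63; -0.18 in the DMSO series), and *COX5B*, a cytochrome c oxidase subunit (0.92), beside 5.91% of all features. *COX5B* lost its call in 5 leave-one-out fits and *SDH2* in 2 (highest adjusted p 0.111 and 0.059).

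*HXT1*, a low-affinity glucose transporter, had 131, 97.9 and 307 CPM in *mad1Δ bub2Δ* cells, against 572, 706 and 591 CPM in *MAD1 BUB2* cells. The groups did not overlap (-1.80, adjusted p = 0.00101). The DMSO series, at 362, 353 and 513 CPM, was closer to the wild type (-0.60, adjusted p = 0.254), and without mutant replicate 3 the difference of *HXT1* was -2.44. *HXT2*, a high-affinity transporter, had 367, 471 and 850 CPM in *mad1Δ bub2Δ* cells, against 1285, 1501 and 1492 CPM in *MAD1 BUB2* cells (-1.34, adjusted p = 0.00439; -0.45 in the DMSO series). The hexokinase *HXK2* (-0.65) and the glucose sensor *RGT2* (-0.55) were also lower. *RGT2* lost its call in 5 leave-one-out fits (highest adjusted p 0.19, without wild-type replicate 1) and *HXK2* in that without mutant replicate 1 (adjusted p 0.0516). *FRE1*, the ferric and cupric reductase of the plasma membrane, had 203, 168 and 118 CPM in *mad1Δ bub2Δ* cells, against 558, 635 and 540 CPM in *MAD1 BUB2* cells. It differed by -1.82 (adjusted p = 3.29e-05) and by -1.02 in the DMSO series, and with *FET3* it made 2 lower of 14 iron genes, where 3.87% of all features were lower. In the DMSO series 3 iron genes were higher and 1 lower (median 0.49), and 6 of the 14 were lower in the nocodazole than in the DMSO series of the mutant.

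Many genes that cells repress on a good nitrogen source were higher in *mad1Δ bub2Δ* cells of the nocodazole series, whereas most were not in the DMSO series. In a list of 26 such genes drawn up after the values had been seen, 15 were higher and 0 lower (median 0.82). The share of all features called higher was 5.91%. In the DMSO series 2 of the 26 genes were higher and 7 lower (median -0.31). Between the 2 mutant sets 20 of the 26 were higher in the nocodazole series (median 1.21). *DAL5*, the allantoate permease, had 281, 256 and 43.9 CPM in *mad1Δ bub2Δ* cells, against 21.8, 37.1 and 33.7 CPM in *MAD1 BUB2* cells. Replicates 1 and 2 of the mutant were far above the wild type, replicate 3 was close to it, and the DMSO series had 19.7, 19.3 and 32.9 CPM. The log2 difference of *DAL5* was 2.64 (edgeR, SE 0.37, adjusted p = 1.74e-05) and -0.37 in the DMSO series, and the 2 mutant sets differed by 3.01 (adjusted p = 2.78e-06). *MEP2*, the ammonium permease, had 3113, 2567 and 926 CPM in *mad1Δ bub2Δ* cells, against 892, 1069 and 813 CPM in *MAD1 BUB2* cells. Replicates 1 and 2 of the mutant were above all wild-type libraries and replicate 3 was among them. With 302, 227 and 627 CPM in the DMSO series, *MEP2* was higher in one mutant set (1.25, adjusted p = 0.00717) and lower in the other (-1.26, adjusted p = 0.00526) than in the same wild type.

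*DIP5*, a dicarboxylic amino acid permease that is not in that list, behaved in the same manner, at 0.96 in the nocodazole series (adjusted p = 0.0353) and -1.14 in the DMSO series (0.0106). *DAL80*, a GATA repressor, was at 1.77 and -0.54, and *DAL4*, the allantoin permease, at 1.89 and 0.27. *BAT2*, the cytosolic branched-chain aminotransferase and also outside the list, was at 1.29 and 0.18. *DAL1*, the allantoinase, was higher in both, at 2.74 and 1.45 (adjusted p = 2.03e-05 and 0.0159). The number of calls in the list ranged from 8 (without mutant replicate 1) to 16 when 1 library was left out. It was 4 with the 9 libraries at 0 h fitted alone, and 4 higher and 1 lower with the mean of both mutant sets, an alternative chosen after seeing the data. *MEP2* (0.92, adjusted p 0.0776) was not called without mutant replicate 1, while *DIP5* lost its call in 5 fits (highest adjusted p 0.182). *DAL5* averaged 193 ± 130 CPM at 0 h (SD, n = 3) and 22.1, 29.5, 34.8 and 34.3 CPM at 4, 8, 12 and 16 h of the nocodazole series. *MEP2* averaged 2202 ± 1139 CPM at 0 h and 104, 98.2, 107 and 94.1 CPM at those times, and *DIP5* 817 ± 370 and 157, 147, 71.5 and 83 CPM. *DAL4* took another course, with 13 ± 5.84 CPM at 0 h and 5.5, 11.8, 55.7 and 67.6 CPM later. The GATA element GATAAG, searched on both strands, was in 14 of the 26 promoters, against 14.7% of all promoters of that length. It was in 10 of the 15 of members called higher and in 4 of the 11 others, and in 24.3% of those of all genes called higher. The promoter of *DAL5* is shown as that of the member with the largest gap between the mutant sets, from chrX:719366-719665 of R64, plus strand, with its 1 match (CTTATC, the other strand) in capitals.
DAL5 promoter: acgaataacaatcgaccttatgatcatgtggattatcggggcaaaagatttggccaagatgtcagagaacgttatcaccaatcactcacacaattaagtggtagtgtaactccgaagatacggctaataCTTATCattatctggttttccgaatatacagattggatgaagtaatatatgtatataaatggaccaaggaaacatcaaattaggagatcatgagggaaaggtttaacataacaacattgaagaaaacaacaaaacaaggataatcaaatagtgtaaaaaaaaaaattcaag

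Ribosomal protein genes separated the 2 mutant sets too. Of 136 tested, 0 were higher and 41 lower in *mad1Δ bub2Δ* cells of the nocodazole series (median -0.49), beside 3.87% of all features. Of the same 136 genes, 0 were higher and 0 lower in the DMSO series (median -0.02). Their CPM summed to 120210 to 144771 in *mad1Δ bub2Δ* libraries and 156196 to 195043 in the DMSO series, against 163095 to 194740 in *MAD1 BUB2* libraries. *RPS14B*, a small-subunit protein gene, had 84.9, 99.7 and 149 CPM in *mad1Δ bub2Δ* cells and 271, 290 and 186 CPM in the DMSO series, against 288, 228 and 276 CPM in *MAD1 BUB2* cells. It was lower in the nocodazole series alone (-1.25, adjusted p = 2.71e-05; -0.08 in the DMSO series), and the mutant sets differed by -1.16 (adjusted p = 4.53e-05). *RPL5*, which binds 5S rRNA, was at -0.73 and -0.09, and *RPL3*, at the peptidyl transferase centre, at -0.64 and -0.16. The count of 41 was 12 without mutant replicate 1 or 2, 16 and 21 without wild-type replicates 1 and 3, and 40 and 45 without wild-type replicate 2 and mutant replicate 3. It was 78 with the libraries of the 2 groups alone, 62 with the 9 libraries at 0 h, 54 with DESeq2 and 9 with the mean of both mutant sets. Many of these genes are near-identical pairs, between which reads can be divided uncertainly. Of 20 ribosome biogenesis genes 6 were lower (median -0.31), among them *RPA190* (-0.71) and *RPA135* (-0.63), the large subunits of RNA polymerase I, while the DMSO series had 9 higher (median 0.64). The 6 became 2 and 1 without mutant replicates 1 and 2, 3 without each wild-type replicate in turn and 7 without mutant replicate 3.

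Chaperone genes *HSC82* and *SSA2*, by contrast, were lower by like amounts in both sets. *HSC82*, the constitutive Hsp90, had 2572, 2407 and 2638 CPM in *mad1Δ bub2Δ* cells and 2508, 2510 and 2377 CPM in the DMSO series, against 4176, 4211 and 4036 CPM in *MAD1 BUB2* cells. Neither mutant set overlapped the wild type (-0.71, adjusted p = 0.00112, and -0.75, adjusted p = 0.00036), and the spread within each group was small. *SSA2*, a constitutive cytosolic Hsp70, was at -0.67 (adjusted p = 0.0257) and -0.68, and lost its call in 4 leave-one-out fits (highest adjusted p 0.124, without mutant replicate 1). They were the 2 lower of 14 heat shock chaperone genes, with 0 higher, beside 3.87% of all features called lower. In the DMSO series 3 of the 14 were lower and 0 higher. *HSC82* and *SSA2* each have a close paralog with which they could share reads.

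Few genes that act in the cell cycle were called. Of 13 spindle assembly checkpoint genes 2 were lower, *MAD1* and *SGO1*, which guards centromeric cohesion (-0.64, adjusted p = 0.00559; above the threshold without mutant replicate 2 or wild-type replicate 1). Of 15 genes of spindle position and mitotic exit 1 was lower, *BUB2*. None of 15 genes of the anaphase-promoting complex, 19 of the G2/M cluster and 10 histone genes was called. Of 17 G1/S genes *POL1*, DNA polymerase alpha, (-0.67) and *SWI4*, the DNA-binding subunit of SBF, (-0.60) were lower, as was the kinesin-5 gene *CIN8* (-0.59) of 13 tubulin and motor genes. *POL1* lost its call in 3 leave-one-out fits and *SWI4* and *CIN8* in 4 each (highest adjusted p 0.0617, 0.0733 and 0.0993). Of 18 M/G1 genes 3 were higher: *PST1*, a cell wall protein gene (1.31), *RME1*, a repressor of meiosis (0.61), and the chitinase *CTS1* (0.59). *CTS1* lost its call in all 6 leave-one-out fits, *RME1* in 5 and *PST1* in 3 (highest adjusted p 0.125, 0.119 and 0.0989). These counts are of the nocodazole series and stand beside 5.91% of all features called higher and 3.87% called lower. In the DMSO series 1 spindle assembly checkpoint gene, 2 genes of spindle position and mitotic exit and 2 tubulin and motor genes were lower. There 1 G1/S gene was higher and 1 lower, and 1 G2/M gene and 2 M/G1 genes were higher. Over all features of the DMSO series 7.85% were called higher and 3.82% lower. *RME1* differed between the 2 mutant sets by 0.57 (edgeR, adjusted p = 0.032).

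Markers of mating type matched the MATa genotype in both strains. *STE2*, the receptor for alpha factor, had 743, 652 and 713 CPM in *mad1Δ bub2Δ* cells and 830, 824 and 800 CPM in the DMSO series, against 423, 495 and 437 CPM in *MAD1 BUB2* cells. It was higher in both mutant sets (0.64, adjusted p = 0.00682, and 0.86, adjusted p = 0.000264). The agglutinin subunit gene *AGA2* (1.55) and the alpha-factor protease gene *BAR1* (0.73) were called higher in the nocodazole series only. This made 3 of 6 tested MATa markers there, beside 5.91% of all features, and 1 of 6, *STE2*, in the DMSO series. *BAR1* lost its call in 4 leave-one-out fits (highest adjusted p 0.137, without mutant replicate 1). Of 4 alpha-specific genes *SAG1*, the alpha agglutinin, had 71.1, 69.4 and 32.7 CPM in *mad1Δ bub2Δ* cells and 15.6, 22.8 and 23.2 CPM in the DMSO series, against 19, 26.1 and 24.8 CPM in *MAD1 BUB2* cells (1.30, adjusted p = 0.00179). The CPM of the 4 alpha markers summed to 34.7 to 73.7 in *mad1Δ bub2Δ* libraries, 17 to 25.1 in the DMSO series and 19 to 27.7 in *MAD1 BUB2* libraries, most of it *SAG1*.

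Some features were high in the mutant partly or mainly through replicate 3, and others lost their call without another library. *YRO2*, a membrane protein gene of the stress response, had 23, 45.8 and 614 CPM in *mad1Δ bub2Δ* cells, against 10.5, 21.4 and 17.9 CPM in *MAD1 BUB2* cells. Its groups did not overlap, but the log2 difference of 3.77 (adjusted p = 0.0226) was 1.03 without mutant replicate 3 (adjusted p 0.53), and replicate 3 of the DMSO series stood out as well (21, 60.9 and 644 CPM). The call of *YRO2* was also lost without each wild-type replicate in turn. *TPO2*, a polyamine exporter, had 247, 492 and 1357 CPM in *mad1Δ bub2Δ* cells, against 67.7, 108 and 92.7 CPM in *MAD1 BUB2* cells. Here replicates 1 and 2 also exceeded the wild type, and the difference of 2.96 (edgeR, SE 0.61, adjusted p = 0.00211) was 2.04 without replicate 3 (adjusted p 0.0185). Of 18 genes of the diauxic shift and stationary phase 3 were higher, beside 5.91% of all features, and the DMSO series had 3 higher and 1 lower. The 3 called in the nocodazole series included the small heat shock genes *HSP26* (2.36, 1.10 without mutant replicate 3) and *HSP12* (1.82, adjusted p 0.0585 without mutant replicate 2). *HSP26* lost its call without mutant replicate 3 or wild-type replicate 1 (highest adjusted p 0.277). Of 20 cell wall genes 4 were higher, *GSC2* (1.25), *FLO11* (1.00), *CWP2* (0.87) and *SLT2* (0.59), against 2 in the DMSO series. The count of 4 became 0 without mutant replicate 2 or wild-type replicate 1. It was 1 without mutant replicate 3 or wild-type replicate 2 or 3. Without mutant replicate 1 it was 4, but *FLO11* and *CWP2* were not among them. *GSC2*, *FLO11* and *CWP2* lost their calls in 5 leave-one-out fits each and *SLT2* in 4 (highest adjusted p 0.223, 0.161, 0.106 and 0.188).

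RNAs without poly(A) tails, which these libraries should hold little of, also differed. *SCR1*, the RNA of the signal recognition particle, had 30.2, 30.5 and 11 CPM in *mad1Δ bub2Δ* cells and 41.2, 35.9 and 18 CPM in the DMSO series, against 0.606, 3.6 and 2.42 CPM in *MAD1 BUB2* cells. Both mutant sets lay above the wild type (3.37, adjusted p = 6.64e-05). *RDN58-1*, a 5.8S rRNA gene, had 206, 143 and 28.5 CPM in *mad1Δ bub2Δ* cells, against 17.4, 15.2 and 19.7 CPM in *MAD1 BUB2* cells (2.85, adjusted p = 0.00323). The share of counts from ribosomal RNA moved with the strain, at 1.11% to 1.57% in *mad1Δ bub2Δ* libraries and 1.40% to 1.87% in the DMSO series, against 0.731% to 0.947% in *MAD1 BUB2* libraries, and removing those features left 598 calls. Of 16 mitochondrially encoded protein genes 0 were called (median -1.55), and their CPM summed to 48.9 to 180 in *mad1Δ bub2Δ* libraries, 55 to 232 in the DMSO series and 210 to 232 in *MAD1 BUB2* libraries. The part of RNA selection in these differences was not tested.

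Mean DNA content, the stain signal per cell by flow cytometry in kilo arbitrary units (kAU), was recorded for the culture of each library. It was 98.2, 107 and 100 kAU in *mad1Δ bub2Δ* cultures, against 82.3, 81.6 and 81 kAU in *MAD1 BUB2* cultures. Every mutant culture was above every wild-type culture, with means of 102 ± 4.79 and 81.6 ± 0.649 kAU (SD, n = 3 each), a ratio of 1.25 (two-sided exact permutation test, p = 0.1, the smallest that 3 against 3 cultures allow). The DMSO series was at 90.7 ± 2.69 kAU, between the other groups and overlapping neither. Median differences of the 16 nuclear chromosomes lay between -0.002 (chromosome XV) and 0.11 (chromosome X), a span of 0.112.

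**Figure D5:**
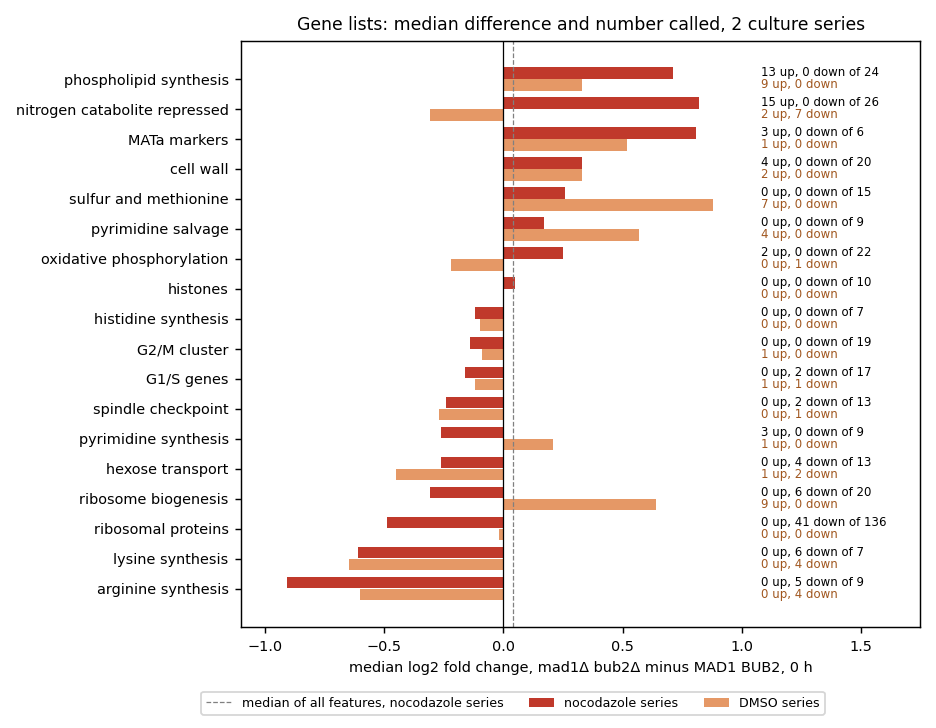
Median log2 difference over each of 18 gene lists, mad1Δ bub2Δ over MAD1 BUB2, for the nocodazole series and the DMSO series of the mutant, with the numbers called. The dashed line is the median of all features, 0.04; phospholipid genes lie above it and arginine and lysine genes below it in both series, whereas nitrogen-repressed genes (0.82 and -0.31) and ribosomal protein genes (-0.49 and -0.02) differ between the series.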

How the data were processed

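Poly(A)-selected RNA was sequenced, and per the study's methods reads were aligned with STAR to the R64 genome, after which Salmon quantified transcripts, both within nf-core/rnaseq (versions not given in the sources used here). The authors deposited whole-number counts per feature and log2(TPM + 1) values for 72 libraries. The counts of the 36 libraries of both strains (12 conditions) were fitted together in edgeR 4.0.16 (R 4.3.3) after filterByExpr and TMM scaling, with 1 coefficient per condition and the quasi-likelihood test. Of 6843 features 6025 were tested and p-values were adjusted over all of them by Benjamini-Hochberg; a call is an adjusted p under 0.05. SE is the size of the log2 difference divided by the root of the F statistic. P-values rest on a spread between replicates that was estimated over all 36 libraries, later times included (24 residual degrees of freedom). Per the study's methods the times of a cell type were sampled from the same culture, so these libraries are not all independent. Counts per gene do not use strand as far as the sources state, so overlapping genes may share reads.

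Members and gene lists were chosen with earlier results of these data known, and the phospholipid, nitrogen, glucose regulator, full ribosomal protein and mitochondrial lists after the values had been seen. Named were the engineered, shared-allele, neighbouring, pyrimidine and histidine genes, the 12 largest non-overlapping calls in each direction with a mean of at least 10 CPM, up to 4 called members per direction of each other list, and the 6 most abundant calls per direction; other genes were named after their values were seen. Alternatives were DESeq2 1.42.0, its size factors, other filters and libraries, rRNA removal, limma 3.58.1 on the deposited log2 values, a replicate block and leaving out each library. Same-numbered replicates of the 2 mutant sets deviated together (correlations 0.348, 0.117 and 0.391), while those of mutant and wild type did not all reach 0.1. No 2 of the 9 libraries at 0 h held identical values. Promoter sequences are from RefSeq, to which 6014 features matched. Counts of 0 limit only counting error.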

Additional observations from a re-analysis of the deposited data

Results flagged for a closer look

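For 45 of the 154 named genes the nocodazole and DMSO series of *mad1Δ bub2Δ* cells at 0 h differed from each other, by the test of that difference itself (edgeR, adjusted over all features, of which 16.8% were called). Both series were compared with the same *MAD1 BUB2* libraries. Many of the named genes were chosen by their values in the nocodazole series, whose libraries also enter this test. Their share called and its direction therefore cannot be read against those of all features. Values are log2 differences of the nocodazole series over the DMSO series. Nitrogen-repressed genes were higher in the nocodazole series: *DAL5* 3.01, *MEP2* 2.51, *DAL80* 2.32, *DAL4* 1.62 and *DAL1* 1.3. The amino acid permease gene *DIP5* (2.1) and the aminotransferase gene *BAT2* (1.11), which are not in the nitrogen list, were higher there too. So were genes of phospholipid synthesis and its carriers, namely *INO1* 1.29, *OPI3* 0.98, *GIT1* 0.98, *CKI1* 0.97, *CHO1* 0.71, *INO4* 0.7, *ITR1* 0.62 and *EPT1* 0.56. Other genes higher there were the alpha agglutinin gene *SAG1* (1.49), the oligopeptide transporter gene *OPT2* (1.2), the uncharacterized reading frame *YEL073C* (1.06), *SDH2* (0.81), *ERG10* (0.66), *PHO8* (0.65), *RME1* (0.57), *ADE2* (0.5) and *ADE12* (0.48).

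Genes of ribosomes and their assembly were lower in the nocodazole series: *RPL22B* (-1.21), *RPS14B* (-1.16), *RPA135* (-1.1), *NOC2* (-0.99), *RPA190* (-0.88), *NOP58* (-0.68), *RPL5* (-0.64) and *RPL3* (-0.48). Pyrimidine genes were lower too, with *URA7* at -1.2, *PPR1* at -0.94, *FUR4* at -0.84, *URK1* at -0.77, *URA1* at -0.76 and *URA6* at -0.47. The rest were the metal uptake genes *FET3* (-1.24) and *FRE1* (-0.8), the glucose transporter genes *HXT1* (-1.2) and *HXT2* (-0.89), *ARG8* (-0.86), *HAP4* (-0.8) and *LYS20* (-0.61).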

How the results depend on the processing

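The 589 calls of *mad1Δ bub2Δ* against *MAD1 BUB2* ranged from 237 (without wild-type replicate 1) to 672 (without mutant replicate 3) when 1 library was left out, and other settings gave 413 (the 9 libraries at 0 h) to 749 (DESeq2). For the DMSO series, 703 calls became 370 with only the 2 groups fitted, 387 with limma, and 320 to 964 with a library left out. Between the mutant sets 1014 became 284 with only the 2 groups, and 552 to 1316. Calls summed over the 12 lists recomputed under every setting, 106 as reported, ranged from 49 to 111 with a library left out. The span of chromosome medians ranged from 0.105 to 0.144. DNA content differed by 17.6 to 22.1 kAU. Taking the mean of both mutant sets against the wild type, an alternative chosen after seeing the data, gave 465 calls and 57 in the lists, and reversed *DIP5* (-0.09, adjusted p = 0.875) and *MEP2* (-0.01, adjusted p = 0.997). The replicate block gave 648, 747 and 1061 calls in these 3 comparisons. Only the last pairs the samples, and there it added *STB2*, *HIS2*, *SRO9* and *FAS2* among named genes and lost none. Of 98 named genes called, 45 were called in all 6 leave-one-out fits. With 3 libraries per group, calls near the threshold depend on single libraries.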
